A study of Mus musculus with 6 samples.

Results

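The epithelial adhesion and splicing genes examined here are Cdh1, Epcam, Esrp1, Esrp2, Cldn4, Cldn6, Cldn7, Grhl2, Krt8 and Krt18. They were taken by gene symbol from the table of all libraries, and 10 of 10 were found among its 19330 genes. RNA was sequenced from 6 mouse libraries. These came from 2 induced pluripotent stem cell (iPSC) lines labelled with palmitoylcarnitine (PC iPSC 5 and 13), 2 control iPSC lines (3 and 7), 1 embryonic stem cell (ESC) culture titled B6 with the source name B6/blu, and 1 culture of mouse embryonic fibroblasts (MEF). Per the labels' protocols, the iPSC and ESC were kept with serum and leukemia inhibitory factor on feeder fibroblasts treated with mitomycin C, and the MEF were grown in serum medium. The labels do not give the dose or timing of palmitoylcarnitine, the reprogramming method, or the animals and cultures behind each sample. The tests below therefore reflect variation among these libraries, which may be technical.

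E-cadherin, encoded by Cdh1, joins neighbouring epithelial cells at adherens junctions. Epcam adds another adhesion molecule of the cell surface, and claudins form the strands of tight junctions that close the space between cells. Krt8 and Krt18 encode the paired keratins of simple epithelia, Grhl2 encodes a transcription factor of epithelial genes, and Esrp1 and Esrp2 encode RNA-binding proteins that select epithelial exons. Fibroblasts lack most of this programme, and reprogramming to pluripotency is known to pass through a mesenchymal-to-epithelial transition.

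The libraries held 26.51 to 27.99 M assigned reads. The 9 pluripotency markers were all read in the iPSC and ESC libraries, where they summed to 3801 to 4887 RPKM (reads per kilobase of gene length, scaled to the library total) in iPSC lines and 5124 RPKM in ESC. In the library labelled MEF, Zfp42, Esrrb, Tdgf1, Dppa5a and Utf1 were at 0 reads, and Nanog stood at 0.0482 RPKM. That library nevertheless held Pou5f1 at 158 RPKM and Sox2 at 88.2 RPKM, genes that fibroblasts do not normally express, which goes against its label, so each comparison with it is a comparison with the library labelled MEF. The 6 macrophage markers found summed to 571 RPKM in MEF, of which Lyz2 held 463 RPKM. They summed to 12.2 to 18.8 RPKM in iPSC lines and 68.3 RPKM in ESC. Keratinocyte markers summed to 34.5 RPKM in MEF. Which cells gave the Cdh1 and Krt8 reads of that library was not tested. The 10 fibroblast markers were read in every library. They summed to 558 to 1275 RPKM in iPSC lines, 298 RPKM in ESC and 5941 RPKM in MEF, and RNA of the cultured cells cannot be told apart from RNA of feeders in these counts. The 9 trophoblast markers summed to 36.2 and 18.3 RPKM in PC iPSC, 24.6 and 19.4 RPKM in control iPSC and 80.2 RPKM in ESC, where Cdx2 was at 0 reads. Most of the ESC sum came from Tfap2c, at 60.7 RPKM, and Krt7, at 12.5 RPKM. In iPSC lines Tfap2c ran from 8.75 to 19.1 RPKM and Krt7 from 3.29 to 7.05 RPKM. The remaining markers went in both directions. Ascl2 had 3.20 RPKM in ESC and 3.27 to 6.33 RPKM in iPSC lines, and Eomes 1.44 RPKM and 0.526 to 0.835 RPKM. Krt7 and Tfap2c also stand in the keratin and epithelial factor lists used below.

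Of the 10 genes, 6 were lower in iPSC than in ESC and 0 were higher. The lower genes were Epcam, Esrp1, Cldn4, Cldn6, Cldn7 and Grhl2. Cdh1 and Esrp2 stood near their ESC level, and Krt8 and Krt18 varied between lines. Against MEF 10 of 10 were higher in iPSC. Between PC and control iPSC 0 of 10 passed the threshold, and 0.0% of all tested genes did so in either direction. Calls are from edgeR's quasi-likelihood test on counts at an adjusted p under 0.05 (Benjamini-Hochberg over 16435 genes). All 10 members passed the filter on low counts. Over all tested genes 5.71% were lower and 4.71% higher in iPSC than in ESC, and 36.5% were higher in iPSC than in MEF. The median log2 fold change of the members against ESC was -1.29, beside 0.03 for all tested genes. At an unadjusted p under 0.05 there were 8 members against ESC and 10 against MEF, beside 29.8% and 71.3% of all genes. For 8 members all 4 iPSC lines lay below ESC and for 0 members all lay above, which held for 29.3% and 37.3% of all genes. No member was lower in iPSC than in MEF, where 31.6% of all genes were. With limma on log2(RPKM + 1) the edgeR calls against ESC were lost, with adjusted p from 0.0593 to 0.0933 and the same signs, while without the MEF library edgeR again called 6. Fibroblast markers, Tfap2c and Krt7 differed between iPSC and ESC as given above. Their part in these results was not tested, and fewer expressing cells cannot be told apart from less RNA per cell.

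**Figure D1:**
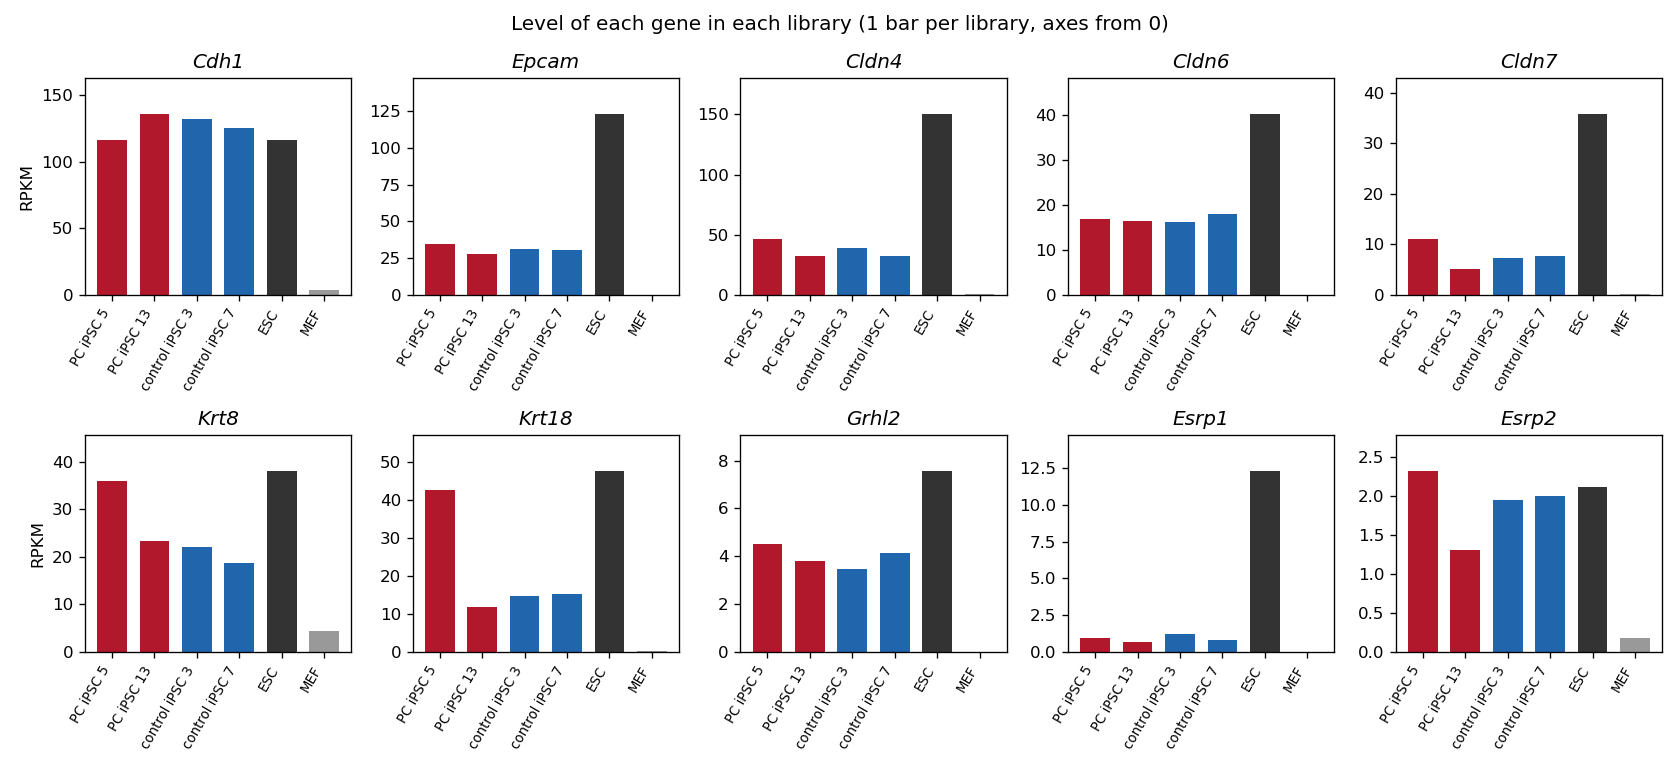
RPKM (vertical axis, from 0) of the 10 genes in the 2 PC iPSC lines (red), 2 control iPSC lines (blue), ESC (dark grey) and MEF (light grey), with 1 bar per library. Cdh1 stands between 116 and 136 RPKM in all iPSC and ESC libraries, while Epcam stands at 123 RPKM in ESC and at most 34.4 RPKM in iPSC.

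Cdh1 was the most abundant of the 10 genes in each iPSC line. Cdh1 (chromosome 8, 106603350 to 106670247 on GRCm38) had 116 and 136 RPKM in PC iPSC 5 and 13, 132 and 126 RPKM in control iPSC 3 and 7, 116 RPKM in ESC and 3.36 RPKM in MEF. PC iPSC 5 lay at the ESC level and the other iPSC lines above it. The log2 fold change in iPSC against ESC was 0.09 (SE 0.17, edgeR adjusted p = 0.757), with a 95% interval from -0.31 to 0.50. That interval lies within 2-fold either way. ESC is 1 library whose spread is taken from the iPSC lines, so the interval does not cover variation between ESC cultures. In MEF the gene had 415 reads spread over 98.4% of its length.

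Epcam was lower in every iPSC line than in ESC. Epcam (chromosome 17, 87635979 to 87651127) had 34.4 and 28.0 RPKM in PC iPSC, 31.0 and 30.6 RPKM in control iPSC, 123 RPKM in ESC and 0.104 RPKM in MEF. No iPSC line exceeded 28.0% of the ESC level, and the lines differed among themselves by at most 1.23-fold. The log2 fold change against ESC was -2.03 (SE 0.14, edgeR adjusted p = 0.00305). The RPKM of Epcam was 0.207 to 0.297 times that of Cdh1 in the iPSC lines and 1.06 times in ESC. Epcam thus lay below Cdh1 in each iPSC line and near it in the ESC library.

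Cldn4, Cldn6 and Cldn7 were each lower in every iPSC line than in ESC. Cldn4, a claudin of many simple epithelia (chromosome 5, 134945123 to 134946934), had 46.5 and 31.9 RPKM in PC iPSC, 39.3 and 32.2 RPKM in control iPSC, 150.0 RPKM in ESC and 0.274 RPKM in MEF. It was the most abundant member in ESC, and its log2 fold change in iPSC was -2.05 (SE 0.19, edgeR adjusted p = 0.00633). Cldn6, a claudin of embryonic epithelia (chromosome 17, 23679348 to 23682446), had 16.9 and 16.5 RPKM in PC iPSC, 16.1 and 17.9 RPKM in control iPSC, 40.2 RPKM in ESC and 0 reads in MEF. Its level was the most even among iPSC lines, with a coefficient of variation of 4.54%, and its log2 fold change was -1.29 (SE 0.15, edgeR adjusted p = 0.00936). Cldn7, which binds EPCAM in epithelial cells (chromosome 11, 69964779 to 69967886), had 11.1 and 5.06 RPKM in PC iPSC, 7.38 and 7.60 RPKM in control iPSC, 35.7 RPKM in ESC and 0.0818 RPKM in MEF. All iPSC lines lay far below ESC, and the PC lines stood on either side of the control lines. The log2 fold change against ESC was -2.24 (SE 0.33, edgeR adjusted p = 0.0165). Genes of chromosome 11 as a whole had a median log2 difference of -0.31 between iPSC and ESC, and Cldn7 lay -1.98 from that median.

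The bases before the transcription start of these genes are shown for the members with a matched window that passed against both ESC and MEF. Windows of 250 bases ending at an annotated transcript start were taken from RefSeq (GRCm38.p6) and were matched for 6 of the 10 members. For Cldn6 that start lies inside the gene, whose first base is 23679348. Its distance below counts from the end of its window and not from that base. The windows of Krt8 and Krt18, which did not pass against ESC, were searched in the same way and are not printed. Cdh1, Esrp1, Esrp2 and Grhl2 were not matched. Capitals mark the E-box CAGGTG, or CACCTG on the other strand, the sequence that repressors of the SNAI and ZEB families are known to bind. The windows lie at chr17:87635729-87635978 (plus strand) for Epcam, chr5:134946935-134947184 (minus strand) for Cldn4, chr17:23679115-23679364 (plus) for Cldn6, and chr11:69964529-69964778 and chr11:69965171-69965420 (plus) for the annotated starts of Cldn7.
Epcam: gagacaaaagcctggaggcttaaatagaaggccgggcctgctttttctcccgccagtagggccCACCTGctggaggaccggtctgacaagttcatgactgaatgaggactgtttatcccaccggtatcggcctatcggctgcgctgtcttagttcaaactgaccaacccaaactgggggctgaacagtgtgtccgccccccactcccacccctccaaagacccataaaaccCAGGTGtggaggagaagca
Cldn4: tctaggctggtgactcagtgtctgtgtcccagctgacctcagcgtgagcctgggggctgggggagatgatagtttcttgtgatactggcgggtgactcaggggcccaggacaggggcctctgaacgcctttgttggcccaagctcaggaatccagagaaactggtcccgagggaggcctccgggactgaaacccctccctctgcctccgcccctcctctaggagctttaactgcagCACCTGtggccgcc
Cldn6: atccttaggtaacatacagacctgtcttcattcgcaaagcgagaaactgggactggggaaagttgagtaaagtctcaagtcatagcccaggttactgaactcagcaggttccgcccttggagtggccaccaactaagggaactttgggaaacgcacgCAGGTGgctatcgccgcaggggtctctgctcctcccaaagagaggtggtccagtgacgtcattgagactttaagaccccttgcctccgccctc
Cldn7, upstream start: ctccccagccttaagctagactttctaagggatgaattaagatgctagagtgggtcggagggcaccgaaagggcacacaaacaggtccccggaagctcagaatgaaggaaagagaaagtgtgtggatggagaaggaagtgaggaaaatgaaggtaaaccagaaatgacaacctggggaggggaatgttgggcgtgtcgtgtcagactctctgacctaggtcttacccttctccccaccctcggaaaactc
Cldn7, downstream start: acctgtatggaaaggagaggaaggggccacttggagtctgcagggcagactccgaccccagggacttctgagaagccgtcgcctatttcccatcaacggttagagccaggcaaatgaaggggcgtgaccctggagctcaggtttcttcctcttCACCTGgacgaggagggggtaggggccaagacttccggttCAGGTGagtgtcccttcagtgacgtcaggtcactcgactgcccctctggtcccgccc

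Epcam had 2 E-boxes in its window, at 187 and 19 bases before the start. Cldn4 had 1 at 14 bases before the start, Cldn6 had 1 at 93 bases, and the downstream start of Cldn7 had 2 at 97 and 57 bases, while its upstream window had 0. The keratins had 1 each, at 111 bases before the start of Krt8 and 214 bases before that of Krt18, so the E-box was present also before members that did not pass against ESC. Of 32841 windows of the same length, 17.2% held at least 1 and 2.06% held 2 or more. The KLF-type box CACCC, or GGGTG on the other strand, occurred once each in the windows of Epcam, Cldn4, the upstream start of Cldn7 and Krt18. Krt8 had 2, Cldn6 and the downstream start of Cldn7 had 0, and 52.0% of all windows held at least 1. A match is a description of the letters and no measurement of binding.

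Among the splicing regulators, Esrp1 showed the largest fold of the 10 members against ESC, and Esrp2 did not pass the test. Esrp1 (chromosome 4, 11331933 to 11386783) had 0.936 and 0.668 RPKM in PC iPSC, 1.23 and 0.827 RPKM in control iPSC, 12.3 RPKM in ESC and 0 reads in MEF. These iPSC levels rest on 72 to 135 reads per line, against 1362 reads in ESC. The log2 fold change was -3.80 (SE 0.25, edgeR adjusted p = 0.00305). Esrp2 (chromosome 8, 106130319 to 106137193) had 2.31 and 1.30 RPKM in PC iPSC, 1.94 and 1.99 RPKM in control iPSC, 2.11 RPKM in ESC and 0.173 RPKM in MEF. ESC lay within the range of the iPSC lines, and the log2 fold change was -0.20 (SE 0.37, edgeR adjusted p = 0.757), with a 95% interval from -1.09 to 0.68. The RPKM ratio of Esrp1 over Esrp2 was 0.405 and 0.513 in PC iPSC and 0.634 and 0.415 in control iPSC, against 5.83 in ESC. Esrp1 was thus the more abundant of the pair in ESC and the less abundant in each iPSC line. Reads per gene do not show which exons were joined.

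**Figure D2:**
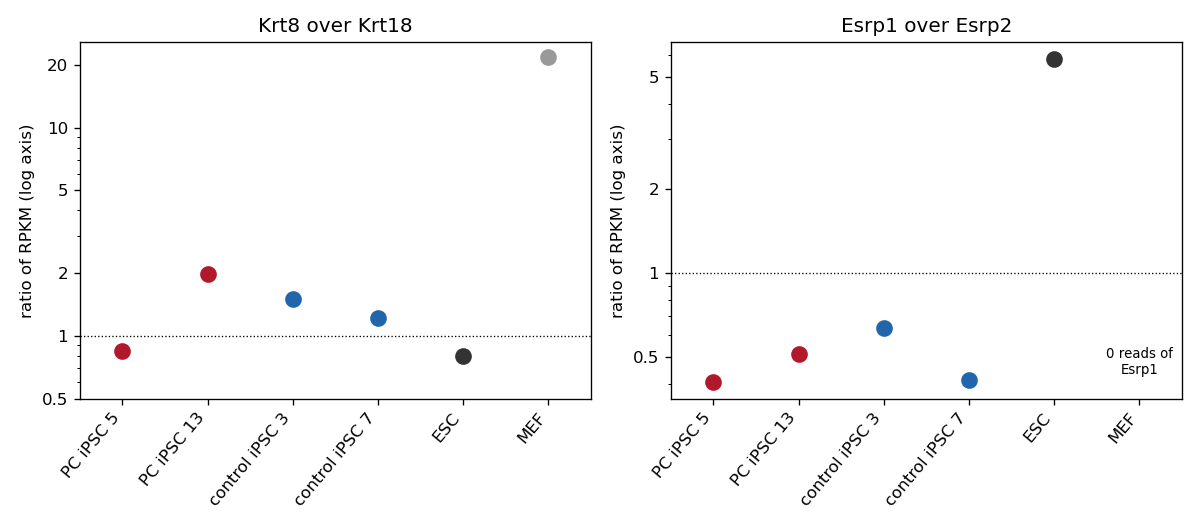
Ratio of RPKM (log axis) of Krt8 over Krt18 and of Esrp1 over Esrp2 in each library, 1 point per library, with the dotted line at equal levels. Esrp1 over Esrp2 lies between 0.405 and 0.634 in the iPSC lines and at 5.83 in ESC, and MEF had 0 reads of Esrp1.

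Grhl2 (chromosome 15, 37232821 to 37363569) had 4.50 and 3.78 RPKM in PC iPSC, 3.47 and 4.15 RPKM in control iPSC, 7.54 RPKM in ESC and 0 reads in MEF. All iPSC lines lay below ESC, with a log2 fold change of -0.97 (SE 0.19, edgeR adjusted p = 0.0288). It was the smallest change among the 6 lower genes. The related factor Grhl3, from the list of epithelial factors, was also lower, at 5.49 and 3.21 RPKM in PC iPSC, 4.35 and 3.67 RPKM in control iPSC and 9.56 RPKM in ESC.

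The paired keratins lie 23.9 kb apart on chromosome 15 and had their highest iPSC level in PC iPSC 5. Krt8 (101996711 to 102004342, minus strand) had 36.1 and 23.3 RPKM in PC iPSC 5 and 13, 22.1 and 18.6 RPKM in control iPSC, 38.0 RPKM in ESC and 4.43 RPKM in MEF. Krt18 (102028216 to 102032026, plus strand) had 42.7 and 11.8 RPKM in PC iPSC 5 and 13, 14.6 and 15.2 RPKM in control iPSC, 47.5 RPKM in ESC and 0.204 RPKM in MEF. PC iPSC 5 was close to ESC for both keratins, at 94.9% and 89.9% of the ESC level, and the remaining lines ran from 49.0% to 61.3% for Krt8 and from 24.8% to 32.1% for Krt18. Against ESC the log2 fold change was -0.67 for Krt8 (SE 0.23, edgeR adjusted p = 0.106) and -1.28 for Krt18 (SE 0.51, edgeR adjusted p = 0.149). Without PC iPSC 5 the log2 fold change was -0.85 for Krt8 and -1.89 for Krt18. Over the fits that left out 1 line it ran from -0.85 to -0.54 for Krt8 and from -1.89 to -0.97 for Krt18. Each such fit left 1 line in 1 iPSC group, so only the folds are given here. The RPKM ratio of Krt8 over Krt18 was 0.845 in PC iPSC 5 and 1.98 in PC iPSC 13, 1.51 and 1.22 in control iPSC, 0.801 in ESC and 21.7 in MEF. The MEF library held 224 reads of Krt8 against 8 of Krt18. RefSeq lists a pseudogene copy of Krt8, and whether it affected the uniquely assigned reads of Krt8 was not tested.

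**Figure D3:**
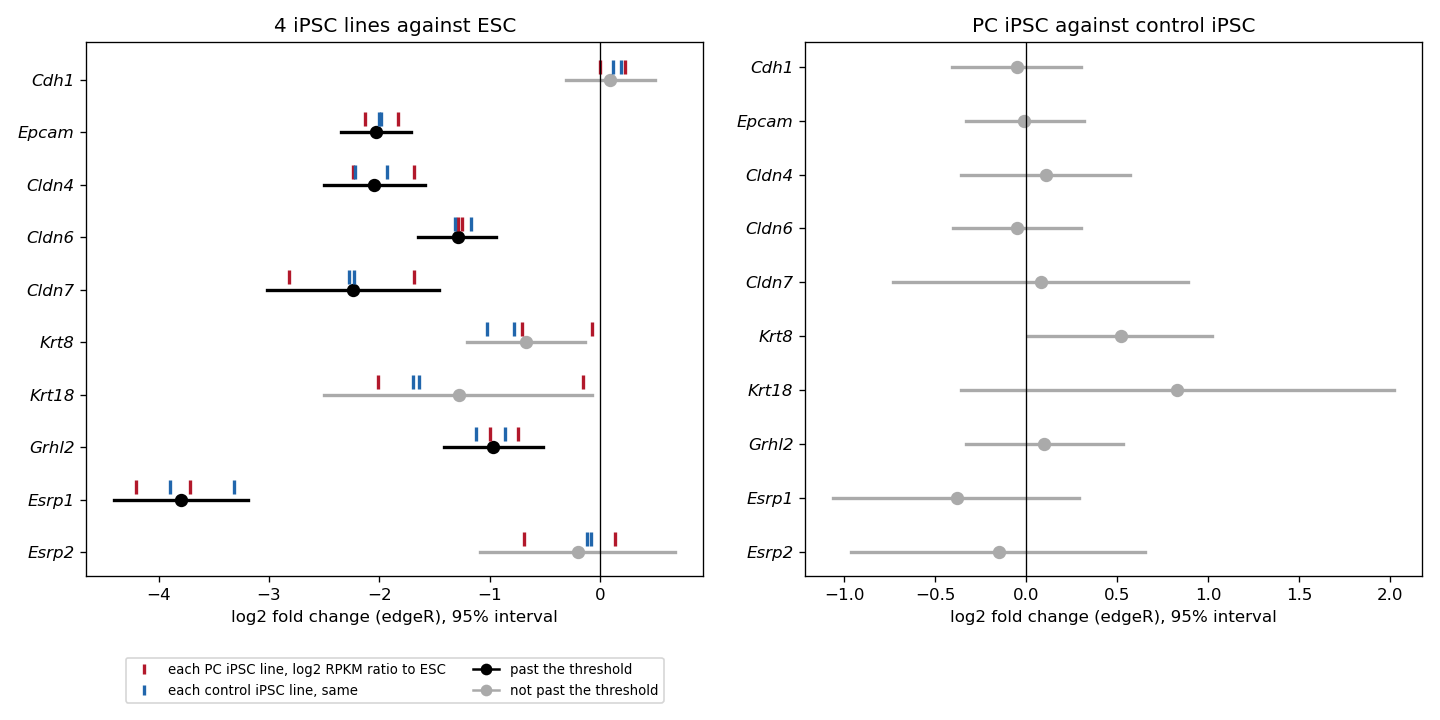
Log2 fold change from edgeR with its 95% interval (horizontal axis) for each gene, for the 4 iPSC lines against ESC and for PC against control iPSC; black points passed the threshold and grey points did not, and ticks are the log2 RPKM ratios of single iPSC lines to ESC. Esrp1 lies at -3.80 and Cdh1 at 0.09 against ESC, and 0 of 10 genes passed between PC and control iPSC.

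Palmitoylcarnitine lines and control lines were compared at each of the 10 genes, and edgeR called 0 members, with 1 at an unadjusted p under 0.05. DESeq2 also called 0. Without control iPSC 7 edgeR called 285 genes higher and 24 lower over all genes, and 0 members. Over all tested genes edgeR called 0.0% in either direction, with 2.34% at an unadjusted p under 0.05. Krt8, at a log2 difference of 0.52 (SE 0.21, edgeR adjusted p = 0.963), was the member under 0.05 before adjustment. It was also the only one of the 10 whose PC and control lines did not overlap, where 16.2% of all genes had both PC lines above and 15.2% had both below. Krt18 differed by 0.83 (SE 0.50) and Esrp1 by -0.38 (SE 0.28), each with an edgeR adjusted p of 0.963. The 95% intervals were narrowest for Epcam, from -0.33 to 0.32, Cdh1, from -0.41 to 0.30, and Cldn6, from -0.40 to 0.30, so a 2-fold difference lay outside them. For Krt18 the interval ran from -0.36 to 2.02, and without PC iPSC 5 the difference was -0.33. Cldn7 differed by 0.08 with both PC lines, and by -0.56 without PC iPSC 5 and 0.52 without PC iPSC 13. In PC iPSC 5 the median log2 difference of chromosome 11 genes from the other iPSC lines was 0.42, and that of Cldn7 was 0.71.

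Against the library labelled MEF all 10 members were higher in the iPSC lines. Cdh1 was higher by 5.27 on the log2 scale (SE 0.24, edgeR adjusted p = 1e-05), Epcam by 8.21 (SE 0.31, edgeR adjusted p = 5.95e-06) and Cldn4 by 7.10 (SE 0.39, edgeR adjusted p = 1.74e-05). MEF is 1 library, with 6 reads of Epcam and 14 of Cldn4. From pooled counts Epcam was 298-fold higher, with a 95% counting interval from 137 to 813. The edgeR interval for Epcam, from 177.5-fold to 494.2-fold, was narrower than that. Krt18 was higher by 6.62 (SE 1.03), Esrp2 by 3.45 (SE 0.53) and Krt8 by 2.49 (SE 0.29), and Krt8 was the member with the most RNA in MEF. For genes with 0 reads in MEF, the fold was set against a floor of 3 reads in that library. Cldn6 was at least 239-fold higher in iPSC, Grhl2 at least 184-fold and Esrp1 at least 34.0-fold. Cldn7, with 3 reads in MEF, was 95.5-fold higher in iPSC, with a 95% counting interval from 32.6 to 464. The median edgeR log2 fold change of the members was 6.86, beside 0.16 for all tested genes. From pooled counts over library totals, with genes at 0 reads set to their bound, the median of the members was 6.64. ESC and MEF were 1 library each, so no test was made. All 10 members were at least 2-fold higher in ESC than in MEF, as were 31.0% of all genes (32.2% with TMM scaling), and 0 were 2-fold lower, as were 27.9% (27.0%). The folds were 8.57-fold for Krt8, 34.6-fold for Cdh1 and 1181-fold for Epcam. With 6 reads of Epcam in MEF, the 95% counting interval of that last fold ran from 542 to 3218. In both iPSC and ESC, the smallest fold over MEF among members was that of Krt8.

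Other junction genes were lower in iPSC than in ESC for part of their lists only. Of 20 tested tight junction genes, 4 were lower and 0 higher, namely Cldn3, the scaffold gene Tjp3, the adhesion molecule gene F11r and the scaffold gene Inadl. Tjp3 had 8.99 and 5.11 RPKM in PC iPSC, 5.96 and 5.20 RPKM in control iPSC and 22.8 RPKM in ESC, and changed by -1.91 on the log2 scale (edgeR adjusted p = 0.0136). Cldn3 changed by -1.98, F11r by -1.02 and Inadl by -0.96. Other claudins did not pass, with log2 values of -0.12 for Cldn12, -0.01 for Cldn9, 1.23 for Cldn5 and 1.07 for Cldn1. Of 12 adherens junction genes, 3 were lower and 0 higher, with P-cadherin (Cdh3) at -1.30, the nectin Pvrl2 at -1.10 and afadin (Mllt4) at -0.59. The catenins that link cadherins to actin did not pass, with log2 values of 0.01 for Ctnnb1 and 0.08 for Ctnna1. Among 9 desmosome genes 3 were lower and 0 higher, the plakophilins Pkp3 at -1.24 and Pkp2 at -1.09 and the envoplakin gene Evpl at -1.30. The list medians were -0.07, -0.10 and 0.01, beside 0.03 for all tested genes. Over all tested genes 5.71% were lower and 4.71% higher in iPSC than in ESC.

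Keratins beyond the simple pair followed the same direction where they passed. Of 12 tested keratin genes, Krt17 (-3.66), Krt42 (-2.60) and Krt19 (-2.05) were lower in iPSC than in ESC and 0 were higher, and these 3 genes lie on chromosome 11. Krt19, another keratin of simple epithelia, had 8.37 and 3.49 RPKM in PC iPSC, 1.99 and 4.65 RPKM in control iPSC and 17.8 RPKM in ESC. Polarity and apical membrane genes held 5 lower and 0 higher of 16. These were the apical polarity gene Crb3 (-1.93), the epithelial adaptor subunit gene Ap1m2 (-1.83), Cdcp1 (-1.37), Prom1 (-1.21) and the polarity gene Pard6b (-0.95), the last named after its value was seen. Crb3 had 5.16 and 4.48 RPKM in PC iPSC, 5.06 and 4.78 RPKM in control iPSC and 17.99 RPKM in ESC. The list medians were -1.42 for keratins and -0.69 for polarity genes, beside 0.03 for all tested genes. Of all tested genes 5.71% were lower and 4.71% higher.

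Proteins that act on or beside EPCAM mostly did not pass against ESC. Of 12 genes, the surface protease gene St14 was lower (-1.19) and the sheddase gene Adam10 higher (0.70) in iPSC. Epithelial transcription factors had 2 lower and 2 higher of 13. Tfap2c (-2.37), a factor of trophoblast and germ cells, and Grhl3 (-1.24) were lower. Klf4 (2.00), a reprogramming factor that also acts in epithelia, and Tfap2a (1.93), named after its value was seen, were higher. Tfap2a was low, at 0.60 to 0.67 RPKM in the iPSC lines and 0.164 RPKM in ESC, beside 4.41 RPKM in MEF. Among other splicing regulators Ptbp2 (0.79) and Mbnl1 (0.76) were higher and Hnrnpa1 (-0.63) was lower, of 13 tested. Of 16 genes with exons known to be under ESRP control, Fgfr2 (-2.90), Nf2 (-0.82) and Ralgps2 (-0.75) were lower. Cd44 (1.60) was higher, and these values are totals over all isoforms. In the order given, the list medians were -0.17, -0.36, 0.44 and -0.02, beside 0.03 for all tested genes. Over all tested genes 5.71% were lower and 4.71% higher, and a count of 1 in these lists is near those shares.

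Mesenchymal regulators showed the opposite direction against ESC. Of 12 genes, 6 were higher and 0 lower in iPSC, with a list median of 1.09. Over all tested genes 4.71% were higher and 5.71% lower, with a median of 0.03. Snai1, a repressor of Cdh1, had 6.08 and 7.63 RPKM in PC iPSC, 5.41 and 6.27 RPKM in control iPSC, 2.64 RPKM in ESC and 9.90 RPKM in MEF, a log2 change of 1.22 (edgeR adjusted p = 0.045). Snai2 changed by 1.74, Twist2 by 1.97, Prrx1 by 1.72, and the mesenchymal cadherin genes Cdh11 and Cdh2 by 1.10 and 1.08. Zeb1 stood at 15.6 and 15.0 RPKM in PC iPSC, 7.81 and 13.4 RPKM in control iPSC and 5.79 RPKM in ESC, and did not pass (1.10, edgeR adjusted p = 0.0637). Each of these genes had a higher RPKM in MEF than in ESC, and the fibroblast markers moved with them, with a median of 6.75% to 10.4% of their MEF level in iPSC lines and 3.69% in ESC. Their part in the result was not tested. The 6 members lower than in ESC were at 0 reads or at most 0.274 RPKM in MEF. Against MEF, 11 of the 12 mesenchymal genes were lower in iPSC, led by Cdh11 (-4.76), Tcf4 (-4.18) and Prrx1 (-3.73).

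Against MEF the lists held genes in both directions, as did all tested genes, of which 36.5% were higher and 31.6% lower. Tight junction genes had 9 higher and 7 lower of 20, with the tricellular junction gene Lsr at 7.24, cingulin (Cgn) at 5.54 and Cldn10 at -6.25. Polarity genes had 10 higher and 1 lower of 16, with Ap1m2, at 0 reads in MEF, at least 88.1-fold higher, Cdcp1 at 4.36 and Crb3 at 4.30. Epithelial factors had 7 higher and 3 lower of 13, with Tfap2c at 5.13, Klf5 at 4.67 and Trp63, a factor of stratified epithelia, at -4.86. The keratins had 2 higher and 4 lower of 12, and those lower included Krt14 (-5.21), Krt80 (-5.33) and Krt6a, which had 0 reads in each iPSC line. Desmosome genes had 3 higher and 3 lower of 9, with Dsg2 at 6.82 and Pkp1 at -9.54. Adherens junction genes had 4 higher and 3 lower of 12, with Pvrl4 at 2.31, Pvrl3 at -1.47 and Cdh3 at 1.39. Of EPCAM partners and proteases, 4 were higher and 4 lower of 12, with St14 at 4.78. The protease inhibitor gene Spint1 and the protease gene Prss8 had 3 and 2 reads in MEF. Splicing regulators had 7 higher and 4 lower of 13, with Mbnl1 at -4.35, Rbm47 at 2.11 and Hnrnpa1 at 1.85, and genes with ESRP-regulated exons had 3 higher and 8 lower of 16, with Fgfr2 at -3.82, Ralgps2 at 2.88 and Enah at 2.66. The 7 keratinocyte markers summed to 34.5 RPKM in MEF, 1.01 to 3.86 RPKM in iPSC and 0.964 RPKM in ESC. Between PC and control iPSC 0 genes of the 10 lists passed.

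**Figure D4:**
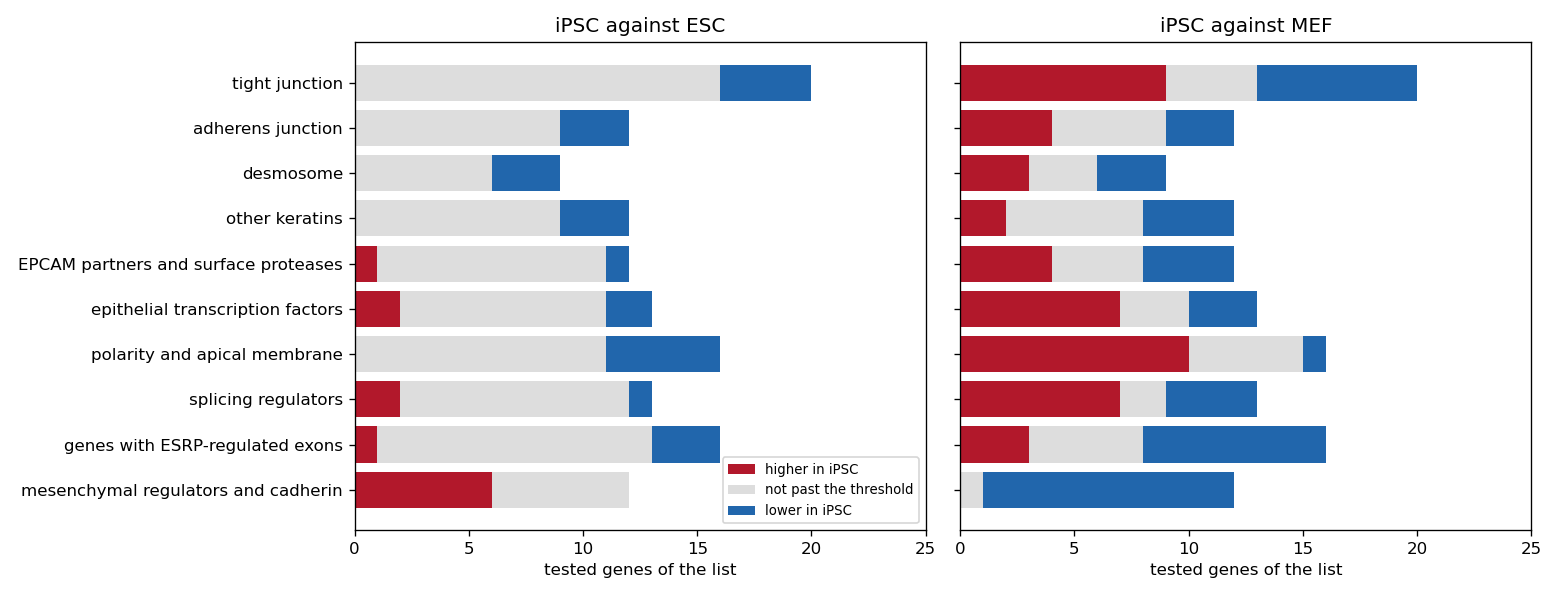
Number of tested genes (horizontal axis) of each gene list that were higher in iPSC (red), did not pass the threshold (grey) or were lower in iPSC (blue), against ESC and against MEF. Junction, keratin and polarity lists hold 3 to 5 lower and 0 higher genes against ESC, while the mesenchymal list holds 6 higher and 0 lower.

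The genes outside the 10 whose log2(RPKM + 1) profile over the 6 libraries was nearest differed between the members. For Cdh1 they were Zwilch, Noc2l, Rbm38, Tacc3 and Oip5, with Pearson's r from 0.9998 to 0.9999. For Epcam they were 2010107G23Rik, Csrp2, Zfp941, Klf2 and Pacsin1 (0.9989 to 0.9997), for Esrp1 Stk36, 6430706D22Rik, Tmem55b, Syngr3 and Birc2 (0.9945 to 0.9980), and for Krt8 Ubxn11, Eftud2, Tmem63b, Crlf3 and Sco1 (0.9971 to 0.9988). Among the members themselves, Epcam had r of 0.999 with Cldn4, 0.996 with Grhl2 and 0.995 with Cldn6, and Krt8 had 0.987 with Krt18. Esrp1 stood furthest from Cdh1, at 0.450. These values share the MEF library, which is far from the others for most of these genes, and describe 6 points only. Of the genes nearest Krt8, Eftud2, Crlf3 and Sco1 lie on chromosome 11. Genes of that chromosome had a median log2 difference of 0.42 in PC iPSC 5 from the other iPSC lines. The part of that shift in these likenesses was not tested. Klf2, a transcription factor of naive pluripotency, had 135 and 112 RPKM in PC iPSC, 106 and 124 RPKM in control iPSC, 407 RPKM in ESC and 5.61 RPKM in MEF.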

How the data were processed

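Per the file headers, the authors deposited uniquely assigned read counts per gene, the percentage of each gene's length covered, and RPKM values, which scale the deposited counts by gene length and library total. The submitters' processing notes list CASAVA 1.8.2 and mm10 without stating their roles. Which aligner, counter and annotation were used, and whether strand was, is not given in the sources used here. Counts summed to the stated total in each of the 6 libraries, and count, length and total gave the deposited RPKM except for 93 genes, of which 0 are members. Even numbers made up 62.4% to 67.5% of counts from 1 to 20, against 48.8% to 50.6% above, so a low count may not be that many separate fragments.

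Counts were tested with edgeR 4.0.16 (TMM scaling, its default expression filter, 4 group means over all 6 libraries, 2 residual degrees of freedom) in R 4.3.3, and the iPSC value is the mean of the 2 iPSC group means. ESC and MEF have 1 library each, and their spread is taken from the iPSC lines. The procedure was tested on simulated data. Those counts had the same dispersion in all libraries, so they cannot show whether ESC and MEF vary as the iPSC lines do. Alternatives used DESeq2 1.42.0, limma 3.58.1, other scalings and filters, and each iPSC line left out. Intervals on counts are exact 95% binomial intervals and, like the floor of 3 reads, cover counting error only. Positions are RefSeq's on GRCm38.p6.

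The members and gene lists were chosen with earlier results of these data known. The 10 members are named whatever their values. From each of 10 lists up to 4 genes are named against ESC and up to 3 against MEF, those with the largest fold past the threshold and at least 1 RPKM on one side. The nearest profiles are the 5 of highest r. A sentence that names other list genes gives them for comparison, and they were chosen after their values were seen.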

Additional observations from a re-analysis of the deposited data

Results flagged for a closer look

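Krt18 in PC iPSC 5, at 42.7 RPKM, lay far from the other iPSC lines, which had 11.8 RPKM in PC iPSC 13 and 14.6 and 15.2 RPKM in control iPSC. Its distance to the nearest line was 0.888 of the whole range of the 4 lines. It was 1 of 10 members screened this way, and chance marks about 1 in 20.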

How the results depend on the processing

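The 6 members lower in iPSC than in ESC were also 6 with RLE factors, library totals only, DESeq2, no filter, a mean RPKM of at least 1, chromosome 11 left out of scaling, and the 5 iPSC and ESC libraries alone. Leaving out 1 iPSC line left 1 line in 1 iPSC group, and the log2 fold changes of the 6 members stayed negative. With limma on log2(RPKM + 1) or log2(RPKM + 0.1) it was 0, and the cause was not tested. The folds there had the same sign, and limma called 3 genes higher and 8 lower in all on the first scale and 3 and 0 on the second, beside 774 and 939 with edgeR. Over all genes DESeq2 called 1310 higher and 1057 lower, and edgeR without 1 line 798 to 1449 higher and 983 to 1455 lower. The 10 of 10 against MEF and the 0 of 10 between PC and control iPSC were the same under all alternatives run. The sign of small PC differences was not stable. For Epcam it was positive with library totals only (0.02), with either limma scale (0.01 and 0.01) and with chromosome 11 left out of scaling (0.01). Over fits without 1 line the difference ran from -0.20 to 0.08 for Cdh1, -0.13 to 0.11 for Epcam, -0.58 to 0.18 for Esrp2, -0.16 to 0.33 for Cldn4, -0.12 to 0.03 for Cldn6, -0.56 to 0.52 for Cldn7, -0.02 to 0.24 for Grhl2 and -0.33 to 1.46 for Krt18. No paired analysis was possible because the groups compared share no line numbers. Depth limits the precision of Esrp1 and Esrp2 in iPSC, at 72 to 135 and 95 to 172 reads per line, and of the members with 0 to 14 reads in MEF.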

Other observations

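Reads covered 84.1% of the 2061 bases of Epcam in PC iPSC 5, 84.1% in PC iPSC 13, 87.6% in control iPSC 3 and 84.2% in control iPSC 7, against 97.7% in ESC. The iPSC values rest on 1568 to 1966 reads per line. Among genes with a like number of reads in the same line, within a factor of 1.5, the median coverage was 98.1% to 98.3%, and 4.06% to 6.48% of those genes were covered to the same extent or less. In ESC, with 7069 reads, the median of such genes was 99.0% and 24.2% were at or below Epcam. Grhl2 was covered to 90.8% in PC iPSC 5 and 90.0% in PC iPSC 13, 92.7% in control iPSC 3 and 96.7% in control iPSC 7, against 98.1% in ESC. Among genes of like reads 14.02% to 47.6% in the iPSC lines and 56.1% in ESC were at or below it. Cldn4, with 1559 to 2356 reads in the iPSC lines, was covered to 98.5% in PC iPSC 5 and 98.6% in PC iPSC 13, 98.3% in control iPSC 3 and 90.8% in control iPSC 7. The deposited values do not say which bases were uncovered, and this measure was chosen after its values were seen.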
